A study of Mus musculus with 3 samples.

Results

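RNA of 37 genes of glycolysis, the pentose phosphate pathway and the step that feeds pyruvate into mitochondria was described in leukemic cells of 3 mice. The 37 genes were taken by symbol, with earlier results of these data known, and all 37 were found among the 28074 named symbols of the deposited table. The cells were acute myeloid leukemias of the genotype miR-196b-/-, Dnmt3a fl/fl, Flt3 ITD/ITD with Mx1Cre, named BKO AML by the submitters. Flt3 ITD is an internal tandem duplication that keeps the Flt3 receptor active. Dnmt3a is a DNA methyltransferase whose floxed alleles Cre recombinase can delete. Mx1 is an interferon-responsive promoter that also drives Cre outside the blood. Sample titles give Dnmt3a as +/- where the genotype field gives fl/fl. Age, sex and any treatment of the mice are not given in the labels. Spleens were taken from moribund mice, and cells with c-Kit, a receptor of blood progenitors, were enriched on magnetic beads after lysis of the red cells. Their RNA went into paired-end sequencing of 150 nt. All 3 leukemias belong to 1 group. The table also held 3 columns of control leukemias that the labels place in another series and that were not used here, so no comparison between conditions was made. Mice 1, 2 and 3 are named in the order of their records, and the number carries no other meaning.

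Glycolysis splits glucose into pyruvate, with a gain of ATP and NADH, and lactate dehydrogenase restores the NAD that the pathway uses. The pentose phosphate pathway branches off after the first phosphorylation, makes NADPH in its oxidative arm, and returns sugars to glycolysis through transketolase and transaldolase. Pyruvate dehydrogenase passes pyruvate to the mitochondrial acid cycle, and its kinases switch it off. Several steps are carried out by isoenzymes from different genes, which differ in kinetics, regulation and tissue. Neutrophils and their precursors are known for high glycolytic activity and for use of the NADPH that the oxidative arm supplies.

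The microRNA deleted in all 3 leukemias is shown because it is the allele that the study's title names. Its mature 5′ arm lies at chr6:52230129-52230150 on the minus strand (RefSeq, GRCm38.p6), and the capitals mark the seed, bases 2 to 8.
mmu-miR-196b-5p: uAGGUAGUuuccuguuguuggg
The letters that pair with this seed, ACTACCT, were searched on the sense strand of the longest annotated 3′ UTR of each gene. They were found in 1 of 35 members with a UTR, 2.86%, against 799 of 11904 expressed genes, 6.71%. That member was Pfkfb1, at position 35 of a UTR of 256 nt, shown with the match in capitals.
Pfkfb1: attgtctctgttctcACTACCTt
The match is a description of letters, and its use in these cells was not tested.

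Values are TPM, a transcript abundance scaled to a fixed library total and corrected for transcript length, which can be compared between genes. A gene counted as expressed at a mean of at least 1 TPM over the 3 mice, which 15181 genes reached. All 37 members had at least 1 TPM in all 3 mice. The members together summed to 5454, 4828 and 4672 TPM in mice 1, 2 and 3, or 0.587%, 0.521% and 0.503% of the table (mean 0.537% ± 0.0440, SD, n = 3). As deposited the sum was highest in mouse 1 and lowest in mouse 3, while after scaling to a common upper quartile it was 5166, 4874 and 4886 TPM, highest in mouse 1 and lowest in mouse 2. The median of the members' mean levels was 48.8 TPM, against 17.5 TPM over all expressed genes. On the log2(TPM + 1) scale the member median was 5.61 ± 0.19 (SD, n = 3), against 4.19 ± 0.08 over all expressed genes. TPM is a share of the RNA pool, so in these bulk samples fewer cells of a type and less RNA per cell cannot be told apart.

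**Figure D1:**
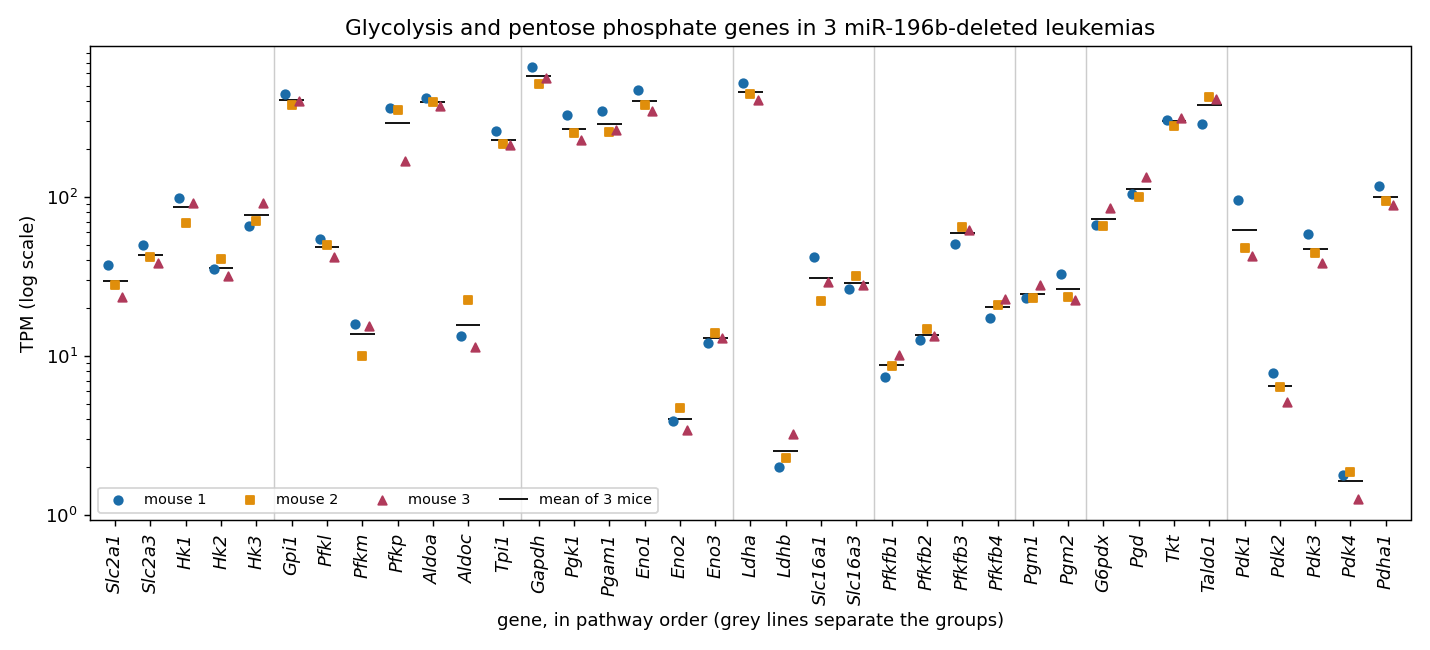
TPM of each of the 37 genes (log scale) in mouse 1 (circles), mouse 2 (squares) and mouse 3 (triangles), with the mean of the 3 mice as a line. Gapdh (578 TPM) and Ldha (458 TPM) have the highest means and Pdk4 (1.63 TPM) the lowest.

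The order of levels held a gap. The 11 highest genes were Gapdh, Ldha, Gpi1, Eno1, Aldoa, Taldo1, Tkt, Pfkp, Pgam1, Pgk1 and Tpi1, and neighbours among them had overlapping ranges over the mice. Tpi1 (211 to 259 TPM) then lay clear of the next gene, Pgd (101 to 133 TPM). Of the 36 pairs of neighbours in the full order, 30 overlapped. The other clear gaps all lay low in the order, between Pgm1 and Pfkfb4, Eno3 and Pfkfb1, Pdk2 and Eno2, Eno2 and Ldhb, and Ldhb and Pdk4.

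Glucose enters through the transporters Slc2a1 (GLUT1) and Slc2a3 (GLUT3) and is trapped by hexokinases. Slc2a3 was at 50.2, 41.7 and 38.4 TPM and Slc2a1 at 37.2, 27.9 and 23.6 TPM in mice 1, 2 and 3. Slc2a3 was the higher transporter in every mouse, with ranges that did not overlap, and made up 59.7% ± 2.26 (SD, n = 3) of the pair. Hk1, the housekeeping hexokinase bound to mitochondria, was at 99.1, 68.6 and 91.1 TPM. Hk3, a hexokinase of myeloid cells, was at 66.2, 71.2 and 92.4 TPM. Hk1 led in mouse 1 and Hk3 in mice 2 and 3, and their ranges overlapped, so no order between the pair could be read. Their shares of summed hexokinase RNA were 43.3% ± 5.80 and 38.4% ± 5.0. Hk2, the inducible form, was the lowest of the 3 in every mouse, at 35.0, 40.8 and 31.8 TPM, or 18.3% ± 3.98 of the sum.

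In upper glycolysis Gpi1, the isomerase that turns the trapped glucose into a fructose phosphate, had 442, 381 and 403 TPM. Phosphofructokinase, the main control point of the pathway, was carried mostly by the platelet-type gene Pfkp (chr13:6579768-6648777, minus strand). Pfkp was at 363, 351 and 169 TPM. Mice 1 and 2 lay close together and mouse 3 well below them, 2.14-fold under mouse 1 and 2.07-fold under mouse 2. The liver-type gene Pfkl was at 54.5, 50.1 and 41.8 TPM and the muscle-type gene Pfkm at 15.8, 10.1 and 15.4 TPM. Pfkp made up 83.8%, 85.4% and 74.7% of the 3 genes (mean 81.3% ± 5.74, SD, n = 3), and its range lay above those of the others. The ratio of Pfkp to Pfkl was 6.65 and 7.01 in mice 1 and 2 and 4.05 in mouse 3.

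The Pfkp promoter window is printed because Pfkp had the largest fold between mice among the members of glycolysis. It spans 250 bases before to 50 after the annotated start (chr13:6648722-6649021, minus strand, RefSeq, GRCm38.p6). Capitals here and in the windows below mark 2 motifs searched on both strands: the E-box CACGTG, which Myc and related factors can bind, and the core of the hypoxia response element, ACGTG or GCGTG. Each E-box also holds the core ACGTG on both strands. This window held 0 E-boxes and 4 cores.
Pfkp: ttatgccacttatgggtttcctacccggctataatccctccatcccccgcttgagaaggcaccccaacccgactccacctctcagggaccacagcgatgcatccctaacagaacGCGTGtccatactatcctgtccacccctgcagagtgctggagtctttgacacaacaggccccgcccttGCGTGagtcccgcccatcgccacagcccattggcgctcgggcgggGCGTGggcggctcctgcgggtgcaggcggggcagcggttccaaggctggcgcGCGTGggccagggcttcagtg

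Aldolase splits the resulting sugar into triose phosphates. Aldoa was at 419, 398 and 373 TPM and made up 96.2% ± 1.35 of aldolase RNA, with a spread of only 0.08 (SD of log2, n = 3). Aldoc, the brain-type form, was at 13.5, 22.6 and 11.3 TPM. Mouse 2 was high for Aldoc, just under 2-fold above mouse 3. Tpi1, which interconverts the trioses, was at 259, 214 and 211 TPM.

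In lower glycolysis Gapdh (chr6:125161715-125166467, minus strand) was the highest of the members in all 3 mice, at 653, 517 and 564 TPM, or percentile 98.6 of expressed genes by its mean. Mouse 1 was highest and mouse 2 lowest. Gapdh had 163 near-identical copies in the annotation (at least 90% identity over at least 50% of the coding sequence), and 67 of them were listed in the table, with 107, 97.2 and 92.0 TPM in sum. That sum equals 17.1% of the level of Gapdh itself, so the value of Gapdh depends on how reads were shared with its copies. The copy with the highest level, Gm12033, was 99.9% identical and stood at 51.9, 55.6 and 48.0 TPM. The copies of Ldha that the table listed came to 0.994% of Ldha, and those of each member other than Gapdh and Ldha to less.

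Pgk1, which makes the first ATP of the payoff phase, was at 328, 251 and 229.9 TPM. Pgam1, which moves the remaining phosphate, was at 347, 258 and 263 TPM. Eno1, the enolase of most tissues, was at 472, 379.8 and 346 TPM and made up 95.8% ± 0.767 of enolase RNA. All 3 genes were highest in mouse 1. The muscle form Eno3 (12.1, 14.0 and 13.0 TPM) and the neuronal form Eno2 (3.90, 4.70 and 3.43 TPM) had their highest value in mouse 2.

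Pyruvate kinase, the last step before pyruvate, is not among the 37 genes, and its main gene was read beside them. Pkm was at 535, 403 and 411 TPM (449 ± 74.1, SD, n = 3). The liver and red cell gene Pklr was at 13.4, 10.1 and 29.5 TPM. Mouse 3 was 2.92-fold above mouse 2 for Pklr, and the ratio of Pkm to Pklr was 39.9, 39.8 and 13.9. The 10 erythroid markers in the table (12 were listed) summed to 375, 257 and 541 TPM. Of the 9 with a mean of at least 1 TPM, 8 were also highest in mouse 3, where 20.3% of all expressed genes were. The part of these markers in the Pklr value was not tested.

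Lactate is made by lactate dehydrogenase and leaves through monocarboxylate transporters. Ldha (chr7:46841475-46855627, plus strand), the subunit that favours lactate, was at 524, 444 and 406 TPM. Ldhb, the subunit that favours pyruvate, was at 2.01, 2.29 and 3.23 TPM. Ldha was highest and Ldhb lowest in mouse 1, and the reverse held in mouse 3. The ratio of Ldha to Ldhb was 260.1, 193 and 126, and Ldha made up 99.4% ± 0.207 of the sum, the most one-sided pair of the 10 isoenzyme steps. The transporters Slc16a1 (MCT1), at 41.8, 22.1 and 29.3 TPM, and Slc16a3 (MCT4), at 26.5, 31.7 and 27.9 TPM, overlapped. Slc16a1 made up 61.2%, 41.1% and 51.2% of the pair, so neither transporter led in all 3 mice.

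The windows of Ldha (chr7:46845554-46845853, plus strand) and Slc16a1 (chr3:104638414-104638713, plus strand) are shown because they held the most cores among the 6 member genes with an E-box in a window, the others being Pdk2, Pfkfb2, Pfkfb3 and Pfkm. The Ldha window held 2 E-boxes and 7 cores (a second annotated start of Ldha, not printed, held 0 and 2), and the Slc16a1 window held 1 E-box and 5 cores, those within E-boxes included.
Ldha: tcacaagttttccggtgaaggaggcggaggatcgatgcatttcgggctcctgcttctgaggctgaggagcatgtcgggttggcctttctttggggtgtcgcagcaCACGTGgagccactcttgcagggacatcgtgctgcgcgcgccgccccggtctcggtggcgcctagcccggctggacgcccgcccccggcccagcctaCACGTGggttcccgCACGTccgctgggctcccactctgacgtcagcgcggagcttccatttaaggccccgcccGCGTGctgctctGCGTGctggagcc
Slc16a1: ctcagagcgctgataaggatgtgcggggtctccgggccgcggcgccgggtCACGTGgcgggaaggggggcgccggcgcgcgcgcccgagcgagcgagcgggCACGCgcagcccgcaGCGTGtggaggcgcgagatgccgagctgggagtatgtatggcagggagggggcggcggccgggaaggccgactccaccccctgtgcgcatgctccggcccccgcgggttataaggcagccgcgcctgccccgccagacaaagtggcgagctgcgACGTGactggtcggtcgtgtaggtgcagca

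**Figure D2:**
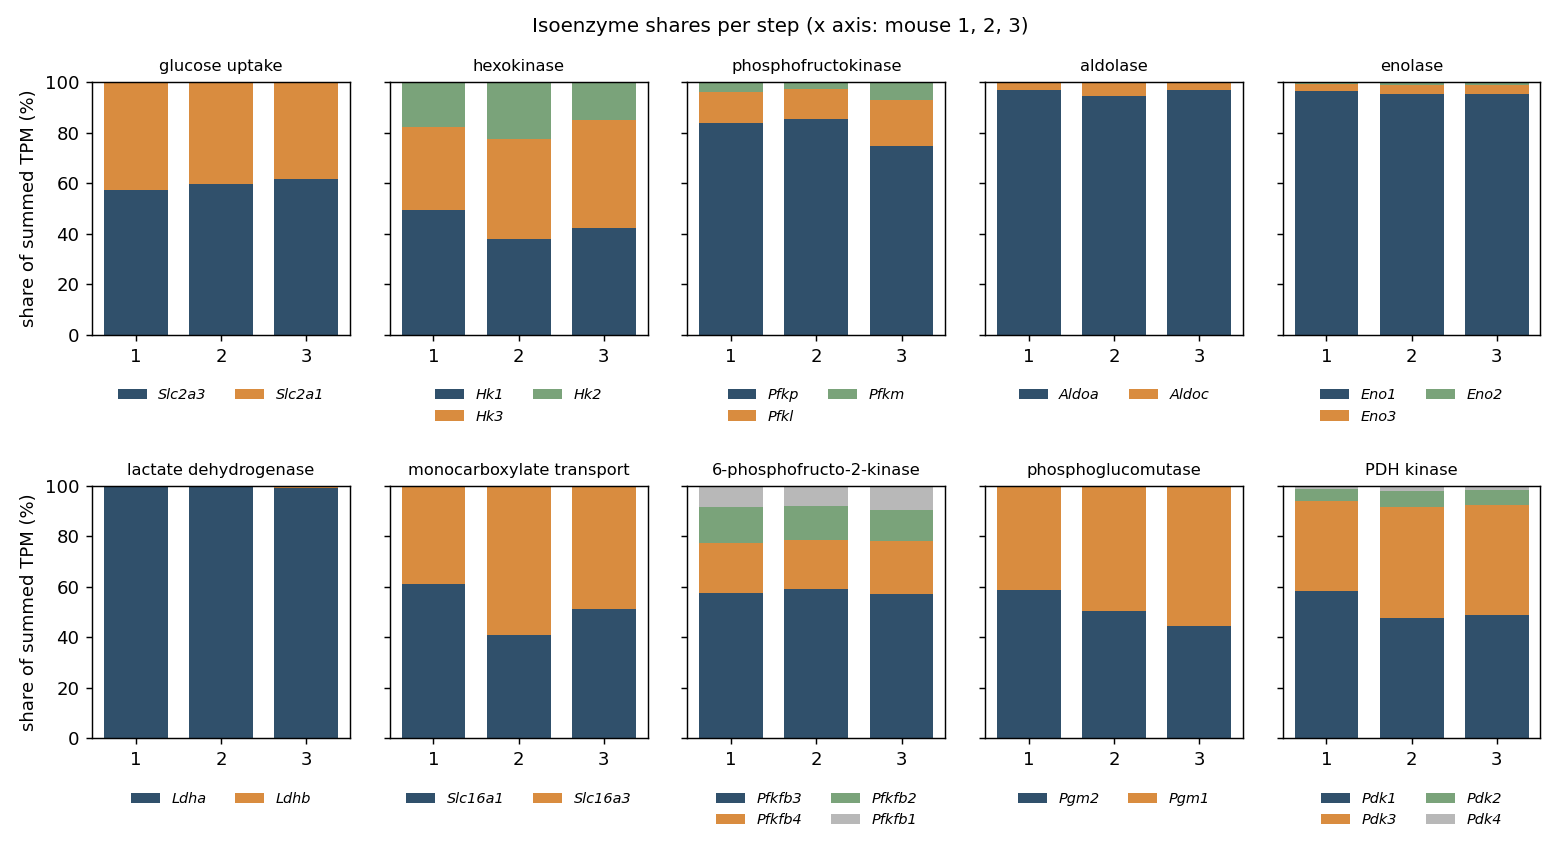
Share of the summed TPM (%) that each isoenzyme holds at 10 steps, 1 bar per mouse (x axis: mice 1, 2 and 3). Ldha, Aldoa and Eno1 fill over 90% of their bars in every mouse, while the hexokinase, monocarboxylate transport and phosphoglucomutase bars change their leading gene between mice.

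The PFKFB genes encode enzymes with both a kinase and a phosphatase domain that set the level of the strongest activator of phosphofructokinase. Pfkfb3, the form with the highest kinase activity, was at 50.7, 64.8 and 62.2 TPM. Pfkfb4 was at 17.4, 21.1 and 22.9 TPM and Pfkfb2, the heart form, at 12.6, 14.8 and 13.3 TPM. Pfkfb1, the liver form and the gene with the seed match shown above, was at 7.37, 8.71 and 10.2 TPM (chrX:150588229-150643878, plus strand). All 4 genes were lowest in mouse 1, as deposited and after upper-quartile scaling, where 24.4% and 36.0% of all expressed genes were, and their sum was 88.1, 109 and 109 TPM. Their order was the same in all 3 mice and their shares did not overlap, at 58.0% ± 1.10 for Pfkfb3, 20% ± 0.943 for Pfkfb4, 13.4% ± 1.03 for Pfkfb2 and 8.56% ± 0.721 for Pfkfb1 (SD, n = 3).

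Phosphoglucomutases link glucose phosphate with glycogen. Pgm1 was at 23.1, 23.1 and 27.9 TPM and Pgm2 at 32.8, 23.6 and 22.4 TPM, and their ranges overlapped. These symbols have been exchanged between annotation releases, so which protein each row stands for is uncertain.

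Of the pentose phosphate genes, G6pdx and Pgd make NADPH in the oxidative arm. G6pdx (chrX:74409483-74429194, minus strand) was at 67.0, 66.0 and 84.8 TPM and Pgd (chr4:149149991-149166771, minus strand) at 105, 101 and 133 TPM. Mice 1 and 2 lay close together and mouse 3 was highest for both. The ratio of Pgd to G6pdx hardly varied, at 1.57, 1.53 and 1.57 (mean 1.56 ± 0.026, SD, n = 3). In the non-oxidative arm Tkt, transketolase, was at 304, 281 and 314 TPM, with a spread of 0.08 (SD of log2). Taldo1, transaldolase (chr7:141392199-141402968, plus strand), was at 290.1, 429 and 416 TPM, low in mouse 1 and close together in the other mice. The ratio of Taldo1 to Tkt was 0.953 in mouse 1, 1.53 in mouse 2 and 1.33 in mouse 3.

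The 4 pentose phosphate genes summed to 766, 876 and 948 TPM. The sum of the 9 leading enzymes from Gpi1 to Ldha ran in the opposite order, at 3805, 3193 and 2966 TPM. Those 9 are the only or highest member of each step in these same data, a choice that bears on the counts below. Of the members left out at these steps, Pfkl and Pfkm were highest in mouse 1 as deposited. Aldoc, Eno2 and Eno3 were highest in mouse 2, and Ldhb in mouse 3. The further pentose phosphate genes, read below, did not sum in the order of these 4. The ratio of Gapdh to Pgd was 6.22, 5.13 and 4.24. As deposited, 9 of those 9 glycolytic genes were highest in mouse 1, where 48.6% of all expressed genes were, and after upper-quartile scaling 6 of 9, where 35.6% were. Of the 4 pentose phosphate genes, 3 were highest in mouse 3 as deposited, where 20.3% of all expressed genes were, and 4 of 4 after that scaling, where 30.4% were. Both sums kept their order of mice after the scaling, but not every gene followed it. As deposited, 3 of the 4 pentose phosphate genes were lowest in mouse 2 and only Taldo1 in mouse 1. After the scaling 3 of the 4 were lowest in mouse 1, where 36.0% of all expressed genes were. Of the 9 glycolytic genes, 6 were lowest in mouse 3 and 3 in mouse 2 as deposited, and 5 and 4 after the scaling. The background for mouse 3 was 42.6% and 30.5%, and 5003 and 5092 of the 15181 expressed genes were lowest in mouse 2. The 10 late neutrophil granule markers ran in the same order as the pentose phosphate sum, lowest in mouse 1 and highest in mouse 3 for 10 of 10 under both scalings, with 2495, 6499 and 21595 TPM in sum and none at 0. The neutrophil gene S100a8 was at 1034, 2529 and 8646 TPM. Of the 10 monocyte and macrophage markers in the table (11 were listed), 7 had a mean of at least 1 TPM, 6 of those were highest in mouse 3, and the 10 summed to 473, 555 and 848 TPM. The part of these cell types in the levels of the 37 genes was not tested.

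Pyruvate dehydrogenase and its kinases differed in the other direction. Pdk1 (chr2:71873224-71903858, plus strand), a kinase gene induced by hypoxia, was at 95.5, 47.9 and 42.5 TPM. Mouse 1 stood apart, 1.99-fold above mouse 2 and 2.24-fold above mouse 3. Pdk3 was at 58.9, 44.2 and 38.3 TPM, Pdk2 at 7.78, 6.41 and 5.17 TPM, and Pdk4, the kinase gene of fasting and fat use, at 1.77, 1.85 and 1.27 TPM. Pdk1 made up 51.6% ± 5.79 of kinase RNA and Pdk3 41.3% ± 4.63, with Pdk1 ahead in all 3 mice although their ranges overlapped. Pdha1, the catalytic subunit that the kinases phosphorylate, was at 117, 94.4 and 89.7 TPM. The ratio of Pdk1 to Pdha1 was 0.816, 0.508 and 0.475. All 5 genes were lowest in mouse 3 under both scalings, where 42.6% of all expressed genes were as deposited and 30.5% after scaling. Of the 5, 4 were highest in mouse 1 (background 48.6% and 35.6%).

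The Pdk1 window (chr2:71872974-71873273, plus strand) is shown for comparison with Ldha and Slc16a1. It held 0 E-boxes and 2 cores (a second annotated start of Pdk1, not printed, held 0 and 0).
Pdk1: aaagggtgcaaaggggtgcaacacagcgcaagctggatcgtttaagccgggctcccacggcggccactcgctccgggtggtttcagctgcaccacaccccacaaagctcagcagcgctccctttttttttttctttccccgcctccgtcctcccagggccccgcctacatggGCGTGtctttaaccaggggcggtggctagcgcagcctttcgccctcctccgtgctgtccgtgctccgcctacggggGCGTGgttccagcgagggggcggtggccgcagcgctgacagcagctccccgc

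Promoter windows were matched for 34 members in RefSeq (53 windows, those of 1 gene may overlap). The E-box was found in 6 of the 53, or 11.3%, against 7.15% of all 32851 windows and 9.64% of those of expressed genes. The core ACGTG or GCGTG was found in 41 of the 53, or 77.4%, against 43.8% of all windows and 59.3% of those of expressed genes. At least 1 core was present in 31 of the 34 genes. That count has no background, since shares were computed per window and genes with several windows have more places for a match. A match says only that the letters are present, and binding was not measured.

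The differences between mice were small for most of the 37 genes. The highest of the 3 mice was less than 1.5-fold above the lowest for 28 of them, a count whose share over all expressed genes was not computed. The median of this fold was 1.35 for the members and 1.36 for all expressed genes, so small differences were no trait of the members. The median SD of log2(TPM + 1) was 0.202 for the members and 0.208 for all expressed genes. Without mouse 2 these were 0.259 and 0.180, and without the filter on low values 0.202 and 0.134, so their closeness depended on these choices. Between any 2 mice, 2 members, Pfkp and Pdk1, were at least 2-fold apart, where 13.8% of all expressed genes were. By pair, 0 members differed this far between mice 1 and 2 (8.00% of all expressed genes), 2 between mice 1 and 3 (8.70%), and 1, Pfkp, between mice 2 and 3 (5.54%). The members' shares lay below these backgrounds in each pair, but they rest on at most 2 genes. The background also holds lower genes, with a median level of 17.5 TPM against 48.8 TPM for the members.

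Which mouse was highest followed the scale of the libraries in part. As deposited, 20 members were highest in mouse 1, 9 in mouse 2 and 8 in mouse 3, where 48.6%, 31.1% and 20.3% of all expressed genes were. The lowest value was in mouse 1 for 10 members, where the background was 24.4%, and in mouse 3 for 18, where it was 42.6%. Scaling to a common upper quartile moved the values by -0.08, 0.01 and 0.06 on the log2 scale. After it, 6 members (Hk1, Gpi1, Pfkm, Pfkp, Aldoa and Taldo1) had their highest value in another mouse, and 15 members were highest in mouse 1, 10 in mouse 2 and 12 in mouse 3, against 35.6%, 33.9% and 30.4% of expressed genes. The lowest value was then in mouse 1 for 13 members (background 36.0%) and in mouse 3 for 16 (30.5%). Of these 10 shares, the one farthest from its background was the last, 43.2% of the members against 30.5%. Within the 37 genes, the PFKFB group was lowest in mouse 1 and the pyruvate dehydrogenase group lowest in mouse 3 for each gene under both scalings. Those groups hold only 4 and 5 genes and were read with no test.

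**Figure D3:**
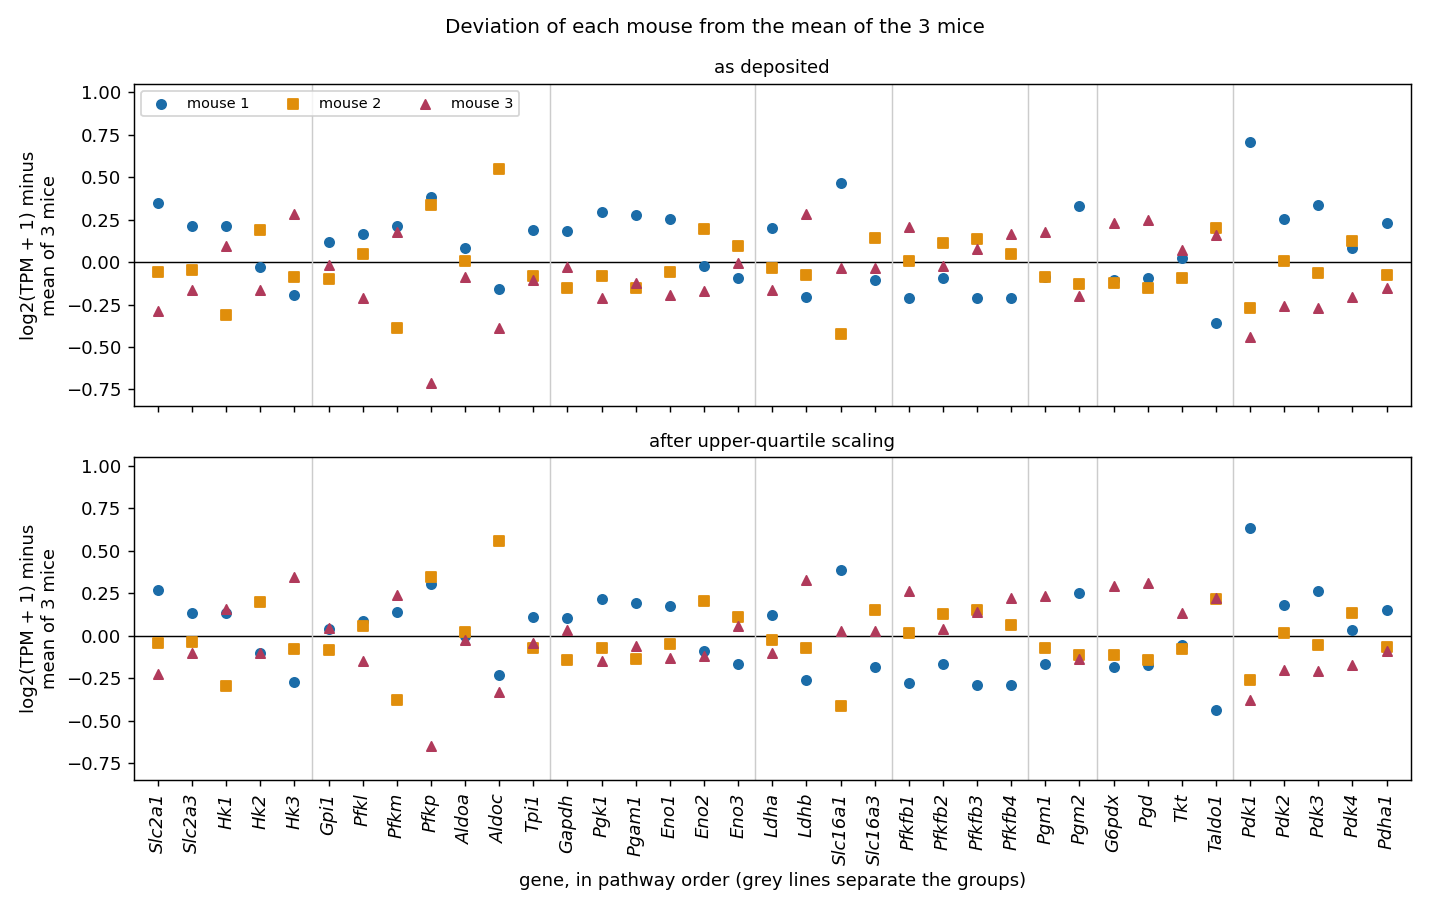
Deviation of log2(TPM + 1) from the mean of the 3 mice for each of the 37 genes, as deposited (top) and after upper-quartile scaling (bottom), with 1 symbol per mouse. Pfkp in mouse 3 and Pdk1 in mouse 1 lie farthest from 0, the 4 Pfkfb genes are lowest in mouse 1, and the 4 pentose phosphate genes of the lower panel are highest in mouse 3, Taldo1 by little.

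Neighbouring genes of the same pathways were read from listed sets. Of 37 further genes of glycolysis and pyruvate use, 26 had a mean of at least 1 TPM and 3 (Hkdc1, Pgk2 and Fbp2) were listed at 0 in all mice. Against 13.8% of all expressed genes, 3 of the 26 apart from Pklr were at least 2-fold apart between any 2 mice. These were Fbp1, an enzyme of glucose synthesis, at 7.28, 2.33 and 1.46 TPM, Pcx, pyruvate carboxylase, at 4.30, 2.01 and 2.22 TPM, and Eno4 at 2.24, 2.43 and 1.2 TPM. Of 11 further pentose phosphate genes, 9 had a mean of at least 1 TPM, 0 were 2-fold apart, and Pgls, the lactonase between G6pdx and Pgd, was highest at 133, 98.9 and 103 TPM. Pgls was thus highest in mouse 1, unlike G6pdx and Pgd. Under both scalings 5 of the 9 were highest in mouse 1 (background 48.6% and 35.6%) and 4 in mouse 3 (20.3% and 30.4%). The 11 genes summed to 381, 332 and 364 TPM, which is not the order of the 4 pentose phosphate members. Of the 17 genes of the mitochondrial acid cycle, 0 were 2-fold apart. As deposited 16 were highest in mouse 1, where 48.6% of all expressed genes were, but after upper-quartile scaling 8, where 35.6% were. Of 12 expressed glycogen genes (13 listed), 1 was 2-fold apart, Gyg, the glycogen primer, at 18.7, 9.04 and 10.97 TPM. The highest of each set were Mdh2 at 172, 156 and 170.1 TPM and Phka2 at 162, 136 and 91.3 TPM.

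Regulators of these pathways were also read. Myc, a known activator of Ldha and other glycolytic genes, was at 258, 167 and 160.4 TPM and was the highest of the 16 expressed regulators (17 listed). Mycn, its relative, was at 75.6, 33.3 and 27.7 TPM, 2.73-fold apart. Both were highest in mouse 1, as were, as deposited, 48.6% of all expressed genes. Of the 6 members with an E-box in a window, Ldha, Slc16a1, Pdk2 and Pfkm were also highest in mouse 1 as deposited. Pfkfb2 and Pfkfb3 were lowest there under both scalings, and Pfkm was highest in mouse 3 after upper-quartile scaling. Mlxipl, a glucose-sensing factor, was at 2.11, 4.23 and 2.66 TPM, 2.01-fold apart. Of 16 hypoxia response genes outside the 37, 8 were highest in mouse 1, 7 in mouse 2 and 1 in mouse 3 as deposited. The background was 48.6%, 31.1% and 20.3%. After upper-quartile scaling the counts were 7, 7 and 2, against 35.6%, 33.9% and 30.4%. Bnip3l had the highest mean, at 153, 108 and 126 TPM. Against 13.8% of all expressed genes, 4 of the 16 were 2-fold apart. They were Ddit4 (103, 23.4 and 16.4 TPM), Ak4 (10.6, 3.50 and 6.55 TPM), Egln3 (45.0, 22.8 and 19.1 TPM) and Bhlhe40 (104, 122 and 55.3 TPM). Of these, Ddit4, Ak4 and Egln3 were highest in mouse 1. Bhlhe40 was highest in mouse 2 and lowest in mouse 3, where, as deposited, 42.6% of all expressed genes were lowest. Whether these regulators act on the 37 genes in these cells was not tested.

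**Figure D4:**
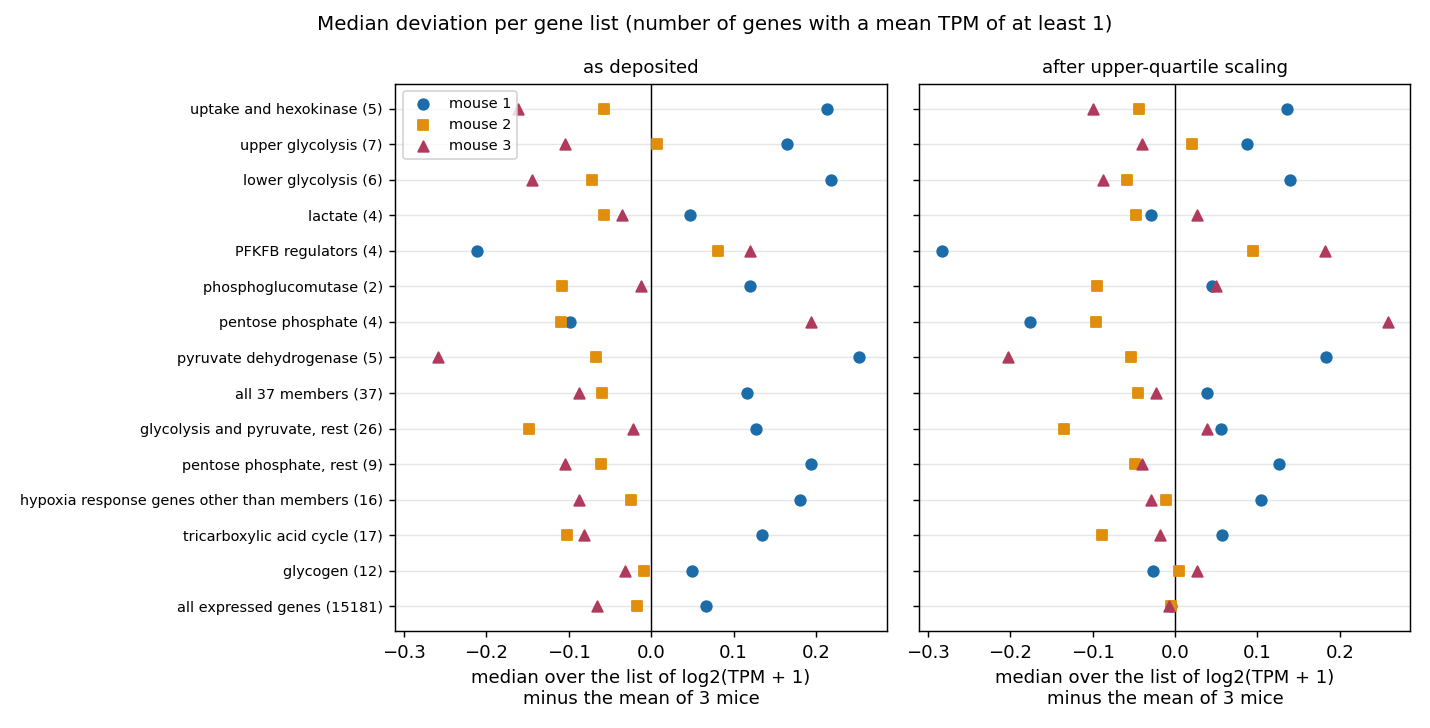
Median over each gene list of the deviation of log2(TPM + 1) from the mean of the 3 mice, as deposited (left) and after upper-quartile scaling (right), with the number of genes in brackets. The pentose phosphate median of mouse 3 and the PFKFB median of mouse 1 keep the same side of 0 in both panels, while all expressed genes move to near 0 after scaling.

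The labelled cell type was checked on its markers. Kit, the receptor used for enrichment, was at 139, 149 and 133 TPM, Cd34 at 202, 141 and 137 TPM, Flt3 at 146, 157 and 106 TPM, and Mpo, a granule enzyme of myeloid precursors, at 1081, 864 and 1632 TPM. Dnmt3a was at 52.2, 64.9 and 54.6 TPM, a sum over the gene that does not check the deletion, and the loss of miR-196b was not checked here. Markers of other lineages were also present, with sums of 492, 951 and 648 TPM for dendritic cells, 47.4, 89.7 and 124 TPM for B cells, 169, 122 and 165 TPM for T and NK cells, and 109.9, 91.2 and 119 TPM for megakaryocytes. The dendritic list includes Flt3, given above as a marker of the leukemia, so its sum does not stand for another lineage alone. The part of these lineages in the levels of the 37 genes was not tested. The deposited column sums differed by 0.276% of their mean. TPM keeps no read depth, so the depth behind each value is unknown beyond the read number planned in the labels. The SD over the 3 mice is the only error given.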

How the data were processed

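RNA-seq values of 3 leukemias, 1 group, were read from a table the authors deposited. The submitters' processing notes name kallisto and mm10, with no version or role given in the sources used here. Per the labels' protocols, libraries came from RNA with an integrity number above 8, with ribosomal RNA depletion named in 1 place and an mRNA kit in another. The deposited values were treated as TPM because the column sums were 929731, 927169 and 928490 and values were linear, although the table is named log2 FPKM. The table held 28987 rows. The 795 rows with no symbol and 27 with a date were left out (0.785%, 0.734% and 0.787% of the sums), and 90 symbols on several rows were summed. Its 3 other per-sample columns hold control leukemias that belong to another series, and they were not used. The table's values could be affected by read sharing between near-identical genes. Means, SDs over mice, log2(TPM + 1), shares of summed TPM and folds between mice were computed with Python 3.11.15, numpy 2.4.6 and pandas 2.3.3, tested on simulated data, and plotted with matplotlib 3.10.9. Copies were found with blastn 2.17.0 against GENCODE M21 transcripts, which also gave loci (GRCm38) and 3′ UTRs. With 1 group, no test was run, and the precision is the spread over 3 mice. The named genes were all 37 members, Pkm, and from each listed set its highest gene and those at least 2-fold apart between mice. Genes singled out beyond that, such as S100a8 and some lineage markers, were picked with their values in view. The members and lists were chosen with earlier results of these data known. Alternatives were leaving out each mouse, upper-quartile scaling, other pseudocounts, filters and thresholds, symbols on several rows left out, and copies added.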

Additional observations from a re-analysis of the deposited data

How the results depend on the processing

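No paired analysis was possible because all 3 leukemias form 1 group. The median spread of the members, 0.202 (SD of log2), ranged from 0.124 without mouse 1 to 0.259 when each mouse was left out. The number of members at least 2-fold apart between any 2 mice, 2, ranged from 0 without mouse 3 to 2, and was 1 without mouse 1. Between mice 1 and 3 it was 1 in place of 2 after upper-quartile scaling, where the fold of Pfkp was 1.94 and that of Pdk1 2.03. The isoenzyme shares stayed within 1 SD under 70 of 70 alternatives and the members' means under 148 of 148, but most of these outcomes were fixed by construction. A mean without 1 of 3 mice cannot move further than 1 SD. Upper-quartile scaling cannot change a share, since all genes of a mouse are divided by the same factor. Leaving out symbols on several rows cannot change any member value, as 0 members are on several rows. Adding copies changed only the shares at the steps of Aldoa, Eno1 and Ldha. Of 70 other recomputed values, 63 stayed within their limits. Upper-quartile scaling changed the mouse with the highest value for 6 of the 37 members (Hk1, Gpi1, Pfkm, Pfkp, Aldoa and Taldo1) and the mouse with the lowest summed level from 3 to 2. Without mouse 1, the mean share of Slc16a1 went from 51.2% to 46.1% and that of Pgm2 from 51.3% to 47.6%, so neither led its pair any longer. The mean share of Hk1 went from 43.3% to 40.2%, and Hk3 led in mice 2 and 3, at 39.4% and 42.9%. The median spread of all expressed genes, 0.208, was 0.144 without mouse 1, 0.180 without mouse 2 and 0.134 with no filter on low values. Adding all near-identical copies, leaving out a mouse or scaling for the members' means, scaling for their sum, the pairwise counts of mouse 1, and leaving out symbols on several rows for the highest-mouse counts were chosen after seeing the data. The set of 9 leading glycolytic genes was likewise taken from the values themselves. The deposited TPM keep no depth, so counting error could not be given.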
